A study of Mus musculus with 6 samples.

Results

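Mt1 and Mt2, the mouse genes for metallothionein 1 and metallothionein 2, were followed through single epithelial cells of the small intestine. Both genes were looked up by name in the deposited tables of the anterior and the posterior jejunum, and both were present, as 2 of the 5674 genes that the tables share. They had been chosen because earlier results on these data pointed to their levels in crypt and villus, so those levels are described here without a test. The cells came from 3 mice of mixed CD-1:C57BL/6 background aged 120 days, with no genotype or treatment given in the labels. Each mouse gave 1 sample of anterior jejunum, piece 3 of 12 of the small intestine, and 1 sample of posterior jejunum, piece 7. Villus and crypt cells were mixed at equal ratio and sorted as single living EpCAM-positive cells, so the share of each class does not give its share in the tissue. Libraries were made with MARS-Seq, a plate method in which each RNA molecule carries a unique molecular identifier (UMI) and is read near its end.

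Metallothioneins are small cysteine-rich proteins that bind zinc and copper in the cytosol. Their genes are induced by zinc, through the metal-sensing transcription factor MTF-1, and also by glucocorticoids and by oxidative stress. MTF-1 binds metal response elements, whose core in the DNA reads TGCACNC or TGCGCNC. In the small intestine metallothionein buffers the zinc taken up from the diet, and it is also known as a product of Paneth cells at the crypt base.

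The genes lie side by side on mouse chromosome 8 (GRCm38, GENCODE annotation). Mt1 (ENSMUSG00000031765) spans chr8:94179082-94180327 on the plus strand with 3 exons. Mt2 (ENSMUSG00000031762) spans chr8:94172664-94173568 on the plus strand with 3 exons, and 5513 bases separate it from Mt1. The values of the pair below move together in the same cells. The 240 bases that end shortly before the RefSeq start of each gene are shown for this reason. They are only a part of the stretch where metal response elements of the pair would be looked for. They are the RefSeq sequence of GRCm38.p6, 5′ to 3′ on the plus strand, at chr8:94178839-94179078 for Mt1 and at chr8:94172368-94172607 for Mt2, and capitals mark each match to TGCACNC or TGCGCNC on either strand.
Mt1: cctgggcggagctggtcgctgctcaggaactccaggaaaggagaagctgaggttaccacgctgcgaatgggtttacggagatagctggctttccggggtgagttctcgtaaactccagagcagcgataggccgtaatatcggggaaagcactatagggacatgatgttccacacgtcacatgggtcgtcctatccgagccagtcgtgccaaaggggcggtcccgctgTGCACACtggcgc
Mt2: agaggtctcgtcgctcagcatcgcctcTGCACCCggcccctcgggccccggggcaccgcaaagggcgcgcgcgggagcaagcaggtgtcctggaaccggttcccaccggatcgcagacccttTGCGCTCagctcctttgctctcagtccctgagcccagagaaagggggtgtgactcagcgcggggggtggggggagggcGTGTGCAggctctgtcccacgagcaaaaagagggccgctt
The Mt1 window held 1 match, 23 bases before the RefSeq start of the gene. The Mt2 window held 3 matches, 1 of them on the minus strand. Of 32851 RefSeq promoter windows of the same length, 20.4% held a match to either motif, 10.01% to TGCACNC and 11.8% to TGCGCNC, and 1.18% held at least 3 matches. Extended to 300 bases, past the RefSeq starts at chr8:94179089 for Mt1 and chr8:94172618 for Mt2, the windows held 3 matches for Mt1 and 4 for Mt2. The first 150 bases of the annotated transcripts held 4 matches for Mt1 and 3 for Mt2, so the printed windows do not hold all matches near the starts. Where transcription starts was not measured. A match describes letters and not a bound site.

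The counts of Mt1 and Mt2 could be told apart as far as the ends of their transcripts go. In the last 300 bases of their transcripts the longest exact stretch that Mt1 and Mt2 share was 17 bases, and none of 276 stretches of 25 bases was common to both. The ends were not wholly unique among all genes. At least 1 such stretch of Mt1 also occurred in Mt3, which was in neither table, and at least 1 of Mt2 in Pip5k1a. A gene on the opposite strand, Gm45774, overlaps Mt2. It held 525 UMIs, against 19961 for Mt2, and 1.82% to 2.96% of the UMIs of Mt2 in each sample. Over all cells of a sample its Pearson correlation with Mt2 lay between 0.49 and 0.66. The sources used here do not state whether reads were counted by strand, so a part of the Mt2 count may belong to Gm45774 or the reverse.

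The tables held 2043 cells, 1028 of the anterior and 1015 of the posterior jejunum, with 198 to 568 cells and 1640578 to 3157105 UMIs per sample. A cell had a median of 3468 UMIs, and the sample medians lay between 2766 and 8689.5. Every sample had its own plates, 1 plate each except for mouse 1 (2 anterior and 3 posterior plates), so region and plate cannot be told apart. The plate label p06 is used for posterior mice 1 and 2, and as all 384 well positions are listed for each of them it stands for 2 plates. Of the markers of other cell types sought in the shared genes, 1 of 13 for T cells, 0 of 8 for B or plasma cells, 0 of 8 for myeloid cells and 1 of 10 for stromal cells were present. Levels are given as UMIs per 10000 UMIs of a cell (CP10K), averaged over the cells of a class in a sample.

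Cells were grouped into 13 clusters and named from marker lists, with the genes tested below left out of both steps. The absorptive, enterocyte-like cells numbered 642 and formed 5 clusters. Crypt progenitor-like cells (185) were the cluster led by Dmbt1 and Clca3b, with ribosomal protein genes, Cps1 and Tubb5 also among its leading genes. Goblet-like cells (632) secrete mucus, enteroendocrine-like cells (114) secrete hormones and tuft-like cells (39) are chemosensory. No cluster met the naming rule used here for Paneth cells, and 431 cells in 3 clusters (numbers 2, 7 and 10) stayed unnamed. These names depended on the rule. With markers set against the median cluster, clusters 2 and 4 were Paneth-like and cluster 10 was crypt progenitor-like. With markers set against the mean of the other cells, cluster 7 was Paneth-like. Cluster 2 had 13 of 13 Paneth markers raised, but also markers of enterocytes and goblet cells. Cluster 7, led by Lars2 and the Paneth defensins, had 12 of 13 Paneth markers raised but a median of 900.5 UMIs per cell and markers of 3 other classes.

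Both metallothionein genes were high in crypt progenitor-like and enterocyte-like cells and low in goblet-like, enteroendocrine-like and tuft-like cells. Mt1 averaged 22.1 ± 9.69 CP10K in crypt progenitor-like cells and 28.8 ± 16.1 CP10K in enterocyte-like cells (SD, n = 6 samples each). It averaged 4.51 ± 2.96 CP10K in goblet-like cells (n = 6), 4.61 ± 1.72 CP10K in enteroendocrine-like cells (n = 5) and 4.11 ± 1.45 CP10K in tuft-like cells (n = 3). Mt2 followed the same split, with 16.5 ± 14.1 CP10K in crypt progenitor-like cells, 15.9 ± 11.8 CP10K in enterocyte-like cells and 1.41 ± 1.33 CP10K in goblet-like cells (SD, n = 6 each). In enteroendocrine-like cells Mt2 averaged 2.55 ± 2.52 CP10K (n = 5).

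In crypt progenitor-like cells Mt1 stood at 33.8, 14.9 and 18.5 CP10K in the anterior samples of mice 1, 2 and 3 and at 34.4, 19.2 and 11.6 CP10K in the posterior samples. In enterocyte-like cells it stood at 32.7, 18.2 and 9.90 CP10K in the anterior samples and at 39.6, 53.3 and 19.0 CP10K in the posterior ones. Goblet-like cells had 5.88, 2.53 and 0.77 CP10K in the anterior samples and 5.15, 9.25 and 3.47 CP10K in the posterior samples. The goblet-like value was the lowest of the 3 classes in each of the 6 samples, while the order of the other classes changed between samples.

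Mt2 in crypt progenitor-like cells stood at 37.4, 7.14 and 10.6 CP10K in the anterior samples and at 31.5, 6.86 and 5.47 CP10K in the posterior ones. Enterocyte-like cells had 24.4, 6.44 and 3.12 CP10K in the anterior samples and 29.4, 25.9 and 6.35 CP10K in the posterior samples. In goblet-like cells the values were 3.04, 0.20 and 0.62 CP10K in the anterior samples and 2.99, 1.46 and 0.14 CP10K in the posterior ones. Mouse 1 had the highest Mt2 level of the 3 mice in each of these classes and in both regions.

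**Figure D1:**
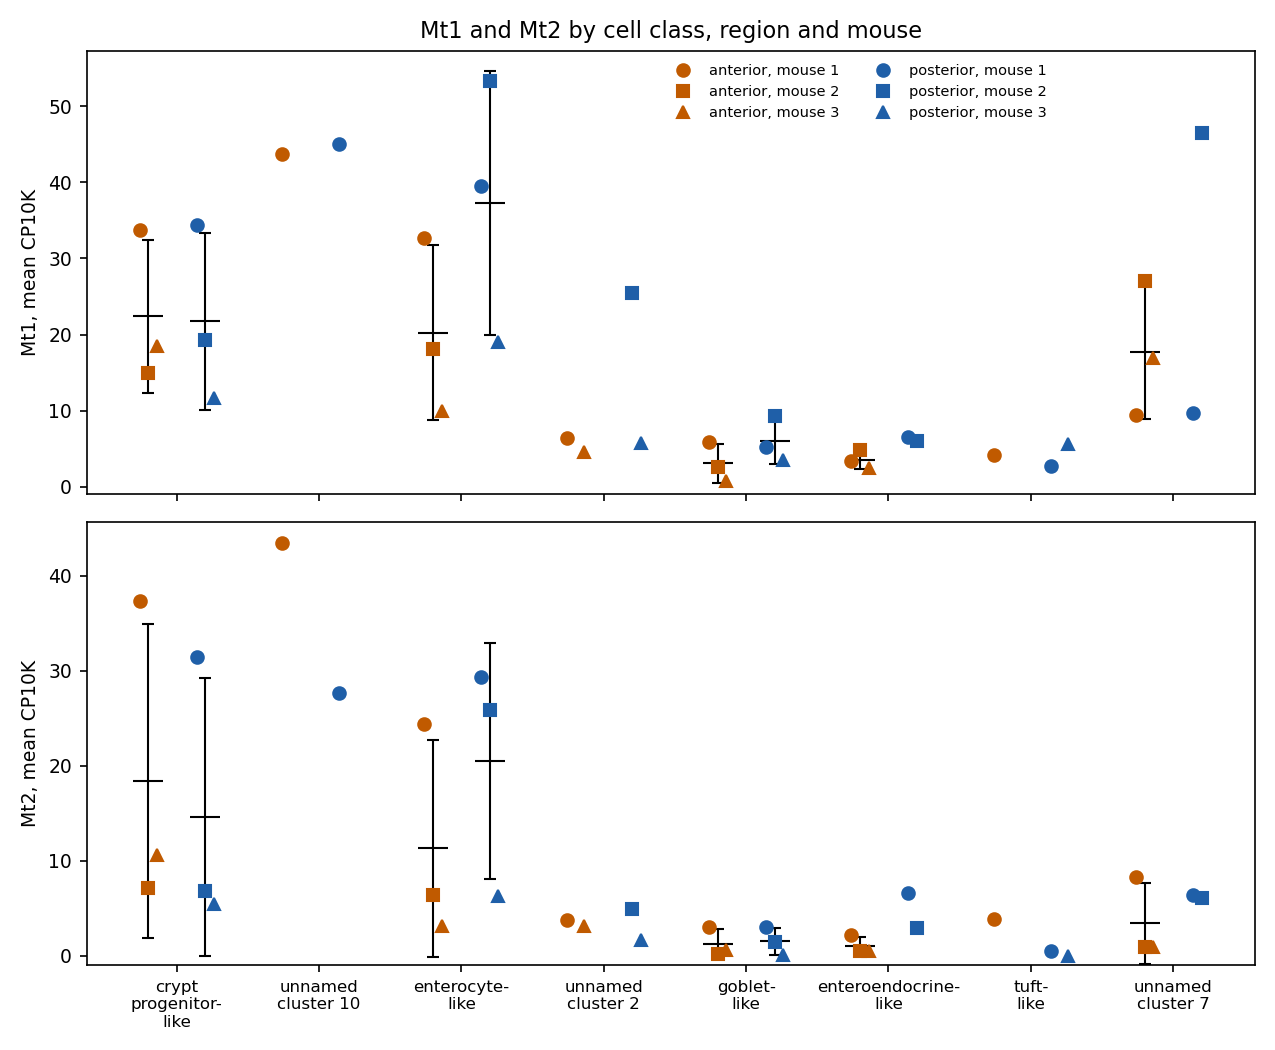
Mean level of Mt1 and of Mt2 (UMIs per 10000 UMIs of a cell) in each cell class, with a point for each sample and the mean and SD where 3 samples of a region are present. Goblet-like samples reach at most 9.25 CP10K for Mt1, while enterocyte-like samples lie between 9.90 and 53.3 CP10K.

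Goblet-like, enteroendocrine-like and tuft-like cells were below enterocyte-like cells in every sample compared. Goblet-like minus enterocyte-like cells differed by -2.72 on the log2 scale for Mt1 (SD 0.37, lower in 6 of 6 samples) and by -3.41 for Mt2 (SD 0.86, lower in 6 of 6). Enteroendocrine-like minus enterocyte-like cells differed by -2.54 for Mt1 and -2.80 for Mt2 on the log2 scale, lower in 5 of 5 samples each. Tuft-like cells were below enterocyte-like cells in 3 of 3 samples for both genes, and Mt2 had 0 UMIs in the 5 tuft-like cells of posterior mouse 3. These are log2 differences of mean CP10K with 0.2 added.

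Crypt progenitor-like and enterocyte-like cells kept no order in CP10K. Their log2 difference was -0.29 for Mt1 (SD 0.78), with the progenitors higher in 2 of 6 samples, and 0.08 for Mt2 (SD 1.17), with the progenitors higher in 4 of 6. The sign of both means changed with the processing: the Mt2 difference was -0.16 under median-ratio scaling and 0.64 with at least 20 cells per class, and the Mt1 difference was 0.11 in the second of these. On the deposited corrected log2 values the progenitors were higher in 5 of 6 samples for both genes, all but posterior mouse 2, by a mean of 0.39 for Mt1 and 0.41 for Mt2. Posterior mouse 2 was the sample with the lowest progenitor value relative to its enterocytes, at -1.46 for Mt1 and -1.88 for Mt2. Crypt progenitor-like cells and all enterocyte-like cells together, as named here, thus lay within the spread between samples for both genes. Progenitors are set against a part of the enterocyte-like cells below. The lower values of goblet-like, enteroendocrine-like and tuft-like cells lay within 1 SD of each other for Mt1.

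The unnamed clusters spanned this range. Cluster 10 was led by Dmbt1 and ribosomal protein genes, and 98 of its 111 cells came from mouse 1. Its best class by markers was enterocyte, with 7 of 12 raised. It shared 5 of its 10 leading genes with the crypt progenitor-like cluster, which left it unnamed. It took the crypt progenitor-like name when markers were set against the median cluster. Cluster 10 had Mt1 at 43.8 CP10K in the anterior and 45.01 CP10K in the posterior sample of mouse 1. Its Mt2 level was 43.5 CP10K in the anterior sample and 27.7 CP10K in the posterior sample. Cluster 7, with the Paneth defensins, had Mt1 at 9.41, 27.0 and 16.9 CP10K in the anterior samples and at 9.70 and 46.5 CP10K in posterior mice 1 and 2, and its Mt2 level did not exceed 8.34 CP10K. Its Mt1 level was above that of enterocyte-like cells in 2 of 5 samples, anterior mice 2 and 3. Its median of 900.5 UMIs per cell leaves each of these means resting on 29 to 65 Mt1 UMIs per sample. Cluster 2, with Slc23a4, Ada, Malat1 and Apoa4 among its leading genes, ranged between 4.53 and 25.4 CP10K for Mt1 over 4 samples.

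Among crypt progenitor-like, enterocyte-like and goblet-like cells, detection of Mt1 was lowest in goblet-like cells, as was its level. Detection was highest in progenitors, although their mean Mt1 level was below that of enterocyte-like cells. At least 1 Mt1 UMI was found in 100.0% of crypt progenitor-like cells in each of the 6 samples, in 62.9% to 96.9% of enterocyte-like cells and in 19.2% to 72.7% of goblet-like cells. Median depth differed between these classes, at 11277.5 to 16233 UMIs per cell in progenitors, 3375 to 12352 in enterocytes and 1948.5 to 7573 in goblet cells. With every cell thinned to 1000 UMIs, which left out 212 shallower cells, the shares for Mt1 were 54.5% to 93.3% in progenitors, 37.2% to 90.6% in enterocytes and 15.4% to 50.0% in goblet cells. The thinned levels in CP10K moved by less than the SD over samples in these classes. No class is known to lack metallothionein, so a background of free RNA could not be set.

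Along the villus the mean level of both genes was highest at the bottom and lowest at the top. Enterocyte-like cells of each sample were ordered by a score, the mean level of genes known to rise towards the villus tip (Apoa4, Apoa1, Ada and others) minus that of genes known from the villus bottom (Reg3b, Reg3g and others), and split into tertiles. Position itself was not measured. The tertiles were cut within each sample, so a tertile does not stand for the same score in every sample. The median score was 0.19 in the top tertile of posterior mouse 1. In posterior mouse 2 it was 0.02 in the bottom and 3.34 in the top tertile. Mt1 averaged 38.6 ± 12.4 CP10K in the bottom, 28.0 ± 21.8 CP10K in the middle and 19.3 ± 17.7 CP10K in the top tertile (SD, n = 6). Mt2 averaged 21.6 ± 12.2, 17.3 ± 16.2 and 8.54 ± 7.70 CP10K in the bottom, middle and top tertiles.

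Between bottom and top the samples differed in the size of the change but not in its direction. Mt1 in the bottom, middle and top tertiles stood at 42.8, 32.8 and 22.1 CP10K in anterior mouse 1, at 27.0, 13.4 and 13.8 CP10K in anterior mouse 2 and at 20.9, 5.77 and 2.88 CP10K in anterior mouse 3. In posterior mouse 1 the values were 41.4, 50.9 and 25.7 CP10K, in posterior mouse 2 they were 54.5, 55.9 and 49.6 CP10K, and in posterior mouse 3 they were 45.1, 9.44 and 1.99 CP10K. The steepest gradients were those of mouse 3 in both regions, posterior mouse 2 was nearly flat, and in posterior mice 1 and 2 the middle tertile was the highest for Mt1. Top minus bottom tertile gave a mean log2 difference of -1.64 for Mt1 (SD 1.60, between -4.37 and -0.14) and of -1.85 for Mt2 (SD 1.25, between -4.25 and -0.66). Both genes were lower at the top in 6 of 6 samples, and no test is given because the genes were chosen for this pattern. In each sample the Mt1 level of crypt progenitor-like cells given above was below that of the bottom tertile. For Mt2 the order of progenitors and bottom tertile differed between samples. This comparison was not tested either.

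**Figure D2:**
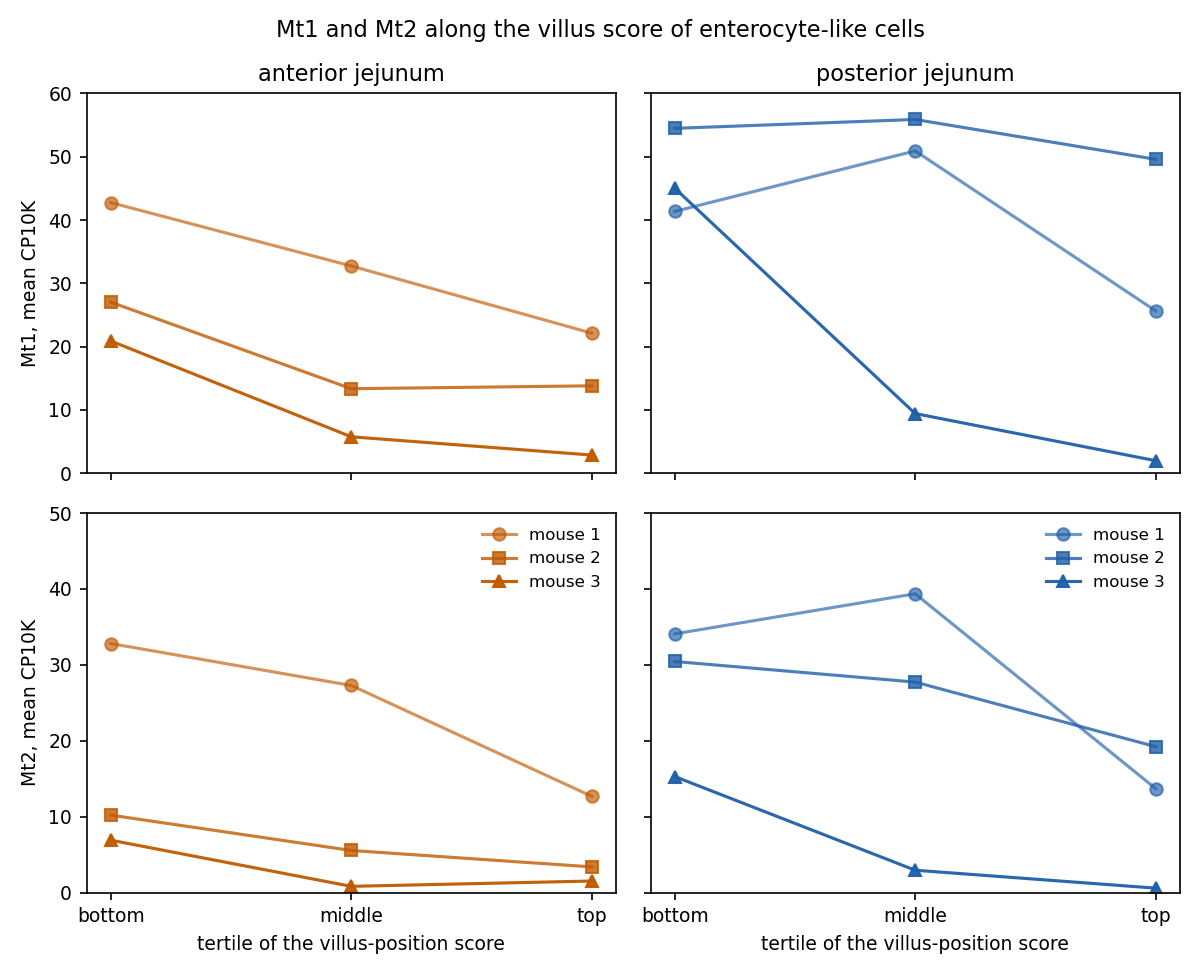
Level of Mt1 and Mt2 (UMIs per 10000 UMIs of a cell) in the bottom, middle and top tertiles of the villus-position score, with a line for each of the 6 samples. Every line ends lower than it starts, and the line of posterior mouse 2 is nearly level for Mt1 (54.5 in the bottom and 49.6 CP10K in the top tertile).

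Depth moved along the same axis. Median UMIs per cell were lower in the top than in the bottom tertile of each sample, for example 1975 in the top and 12321 in the bottom tertile of anterior mouse 3, and 10203 in the top and 19255 in the bottom tertile of posterior mouse 1. With each cell thinned to 1000 UMIs, Mt1 averaged 38.3 ± 11.6 CP10K in the bottom, 32.2 ± 26.2 CP10K in the middle and 19.2 ± 18.1 CP10K in the top tertile, and when cells were thinned before scoring the log2 difference was -1.57 for Mt1 and -1.81 for Mt2. Cluster 4, a shallow enterocyte-like cluster with Chd3 and the nuclear RNA Malat1 among its leading genes and a median of 1601 UMIs per cell, had Mt1 at 24.7, 9.10 and 4.04 CP10K in the anterior samples and at 22.3 and 2.54 CP10K in posterior mice 2 and 3. Without its 163 cells the difference was -1.53 for Mt1 and -2.31 for Mt2.

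The clusters of enterocyte-like cells differed in the same way in most samples. Cluster 6, led by the antimicrobial lectins Reg3g and Reg3b, had Mt1 at 36.8 and 26.7 CP10K in anterior mice 2 and 3 and at 31.1, 52.7 and 42.1 CP10K in the posterior samples. Cluster 12, led by Reg1 and with Apoa4 among its leading genes, had 6.99, 17.7 and 9.72 CP10K in the anterior samples. Cluster 5, with the lipid carriers Apoa4, Apoc3 and Apoa1 among its leading genes, gave the widest gap between mice, with 62.4 CP10K in posterior mouse 2 and 2.92 CP10K in posterior mouse 3. Cluster 11, almost wholly of mouse 1, had 36.1 CP10K in the anterior and 42.7 CP10K in the posterior sample.

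Enterocyte-like cells of one sample were spread widely in their Mt1 and Mt2 levels. The highest 10% of enterocyte-like cells held 27.5% to 53.8% of the summed Mt1 level and 27.5% to 82.2% of the summed Mt2 level of a sample. In the 4 samples with at least 20 crypt progenitor-like cells, the highest 10% of those cells held 21.5% to 28.0% of the Mt1 level. The highest single enterocyte-like cell had 346.5 CP10K of Mt1 and belonged to posterior mouse 2. Depth per cell also differed between the classes, and the difference in spread was not tested.

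Mt1 and Mt2 rose and fell in the same cells. Over enterocyte-like cells within a sample, the Pearson correlation of their log2(CP10K + 1) values lay between 0.53 and 0.79, and over crypt progenitor-like cells between 0.47 and 0.81. Over goblet-like cells, where both genes are sparse, it lay between -0.07 and 0.35. Thinning to 1000 UMIs left Spearman correlations between 0.37 and 0.56 over enterocyte-like cells. Both genes were detected in 26.6% to 96.2% of enterocyte-like cells, and Mt2 without Mt1 in 1.68% to 5.22%.

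No other of 3094 genes was as closely tied to either of them within the enterocyte-like cells. The mean within-sample correlation over the 6 samples was 0.65 between Mt1 and Mt2, against a median gene at 0.05. The next genes for Mt1 were the ribosomal protein genes Rpl23a (0.47) and Rps20 (0.44), the ATP synthase subunit gene Atp5g1 (0.46) and Gm11942 (0.44). For Mt2 they were Rpl23a (0.46), Rpl32 (0.43), Gm11942 (0.43) and Rps18 (0.43). Cells of a sample share depth, and Mt1 and Mt2 rose with the UMIs of a cell (Spearman between 0.15 and 0.52), so these correlations carry that in part.

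Over the 32 class-by-sample means, the gene most like Mt1 was Slc39a5 (Pearson r 0.86 among 3468 genes), which encodes a zinc transporter of the basolateral membrane of enterocytes. It was followed by Dbi (0.84), Cox7c (0.81), Gpx2 (0.81) and Slc25a5 (0.80), and Mt2 came 8th at 0.79. Among the genes most like Mt2 were the fatty acid oxidation gene Acadvl (0.85), the glutathione transferase gene Mgst1 (0.84), Mt1 (0.79) and Cox4i1 (0.77). These points share classes, mice and plates, and the correlations are a description.

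The balance of the genes set mouse 1 apart in both regions. Of the UMIs of both genes together, Mt2 held 48.3%, 31.3% and 28.0% in the anterior samples of mice 1, 2 and 3 and 43.5%, 32.4% and 26.4% in the posterior samples. The 95% Clopper-Pearson interval was 47.5% to 49.2% in anterior mouse 1 and 26.7% to 29.4% in anterior mouse 3, for counting error only. The plates of mouse 1 held 49.1% and 46.9% for anterior jejunum and 42.4%, 48.3% and 41.0% for posterior jejunum, all above the other mice. Plate and mouse cannot be told apart for mice 2 and 3. A share of UMIs is not a ratio of molecules in the cell, since the capture of each transcript is not known. The share is compared only between samples, classes and villus tertiles.

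Mouse 1 had the highest share in both regions of crypt progenitor-like and enterocyte-like cells as well. Mt2 held 52.7%, 33.5% and 34.5% in anterior and 48.9%, 29.2% and 35.8% in posterior crypt progenitor-like cells, against 43.1%, 31.1% and 24.5% in anterior and 42.6%, 33.4% and 26.1% in posterior enterocyte-like cells. Progenitors had the higher share in 5 of 6 samples, all but posterior mouse 2. Goblet-like cells had the lower share in 5 of 5 samples with enough UMIs, with differences of -17.6 to -2.69 percentage points against enterocyte-like cells. Within enterocyte-like cells the share was lower in the top than in the bottom tertile in 6 of 6 samples, at 37.6%, 23.4% and 21.8% in the top and 42.5%, 31.5% and 26.5% in the bottom tertile of the anterior samples, and at 36.3%, 25.5% and 21.7% in the top and 45.5%, 36.2% and 25.99% in the bottom tertile of the posterior samples. In mean CP10K per cell with 0.2 added, the log2 difference of Mt2 was larger than that of Mt1 in both regions of mice 1 and 2 and smaller in both regions of mouse 3, whose top tertiles rest on few UMIs.

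**Figure D3:**
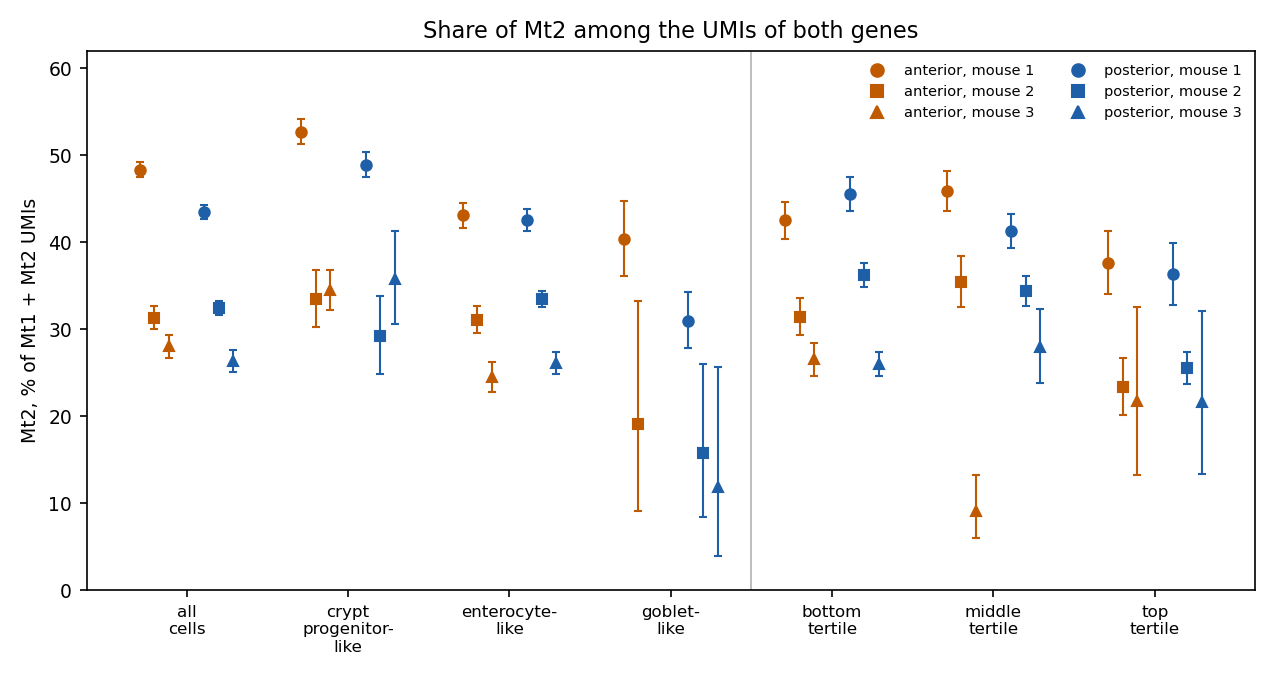
Share of the UMIs of Mt1 and Mt2 together that belong to Mt2, in percent, for each sample, with 95% Clopper-Pearson intervals. The samples of mouse 1 lie at 48.3% and 43.5% and those of the other mice between 26.4% and 32.4% over all cells.

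The region comparison asked whether jejunal position sets the level, and here the genes could be tested. In enterocyte-like cells Mt1 averaged 20.2 ± 11.5 CP10K in anterior samples, against 37.3 ± 17.3 CP10K in posterior samples (SD, n = 3 each). Mt2 averaged 11.3 ± 11.4 CP10K in anterior samples, against 20.5 ± 12.4 CP10K in posterior samples. Both genes were lower in the anterior sample of 3 of 3 mice, with log2 differences of -0.27, -1.54 and -0.92 for Mt1 in mice 1, 2 and 3 and of -0.27, -1.97 and -0.98 for Mt2. The regions overlapped in value, and the difference did not pass the test of all mice, either unpaired or with mouse as a block. The cells compared sat in different clusters: cluster 12 had 96 anterior and 3 posterior cells, cluster 5 had 9 and 128, and cluster 4, with low Mt1 values, had 120 and 43. Within cluster 6 the anterior Mt1 values of mice 2 and 3 given above were below the posterior ones of the same mice, as was that of mouse 1 within cluster 11. Within cluster 4 the anterior Mt1 value given above was below the posterior one in mouse 2 and above it in mouse 3. The part of cluster makeup in the difference was not tested further. In limma with Benjamini-Hochberg adjustment over 4943 genes, the anterior minus posterior log2 difference was -0.91 for Mt1 (SE 0.51, adjusted p = 0.819) and -1.07 for Mt2 (SE 0.75, adjusted p = 0.872). No gene passed an adjusted p of 0.05 (0.0% called), and 320 had an unadjusted p under 0.05.

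Each mouse gave both regions, and with mouse as a block the adjusted p was 0.167 for Mt1 and 0.177 for Mt2 with 20 genes called (0.405%). This rested on the mouse 1 samples: without both of them the blocked fit gave -1.23 for Mt1 (adjusted p = 0.0107) and -1.47 for Mt2 (adjusted p = 0.0105), with 90 of 4729 genes called (1.9%), on 2 mice and 1 residual degree of freedom per gene. Without cluster 4 the difference in the fit of all mice was -0.68 for Mt1 and -0.80 for Mt2.

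**Figure D4:**
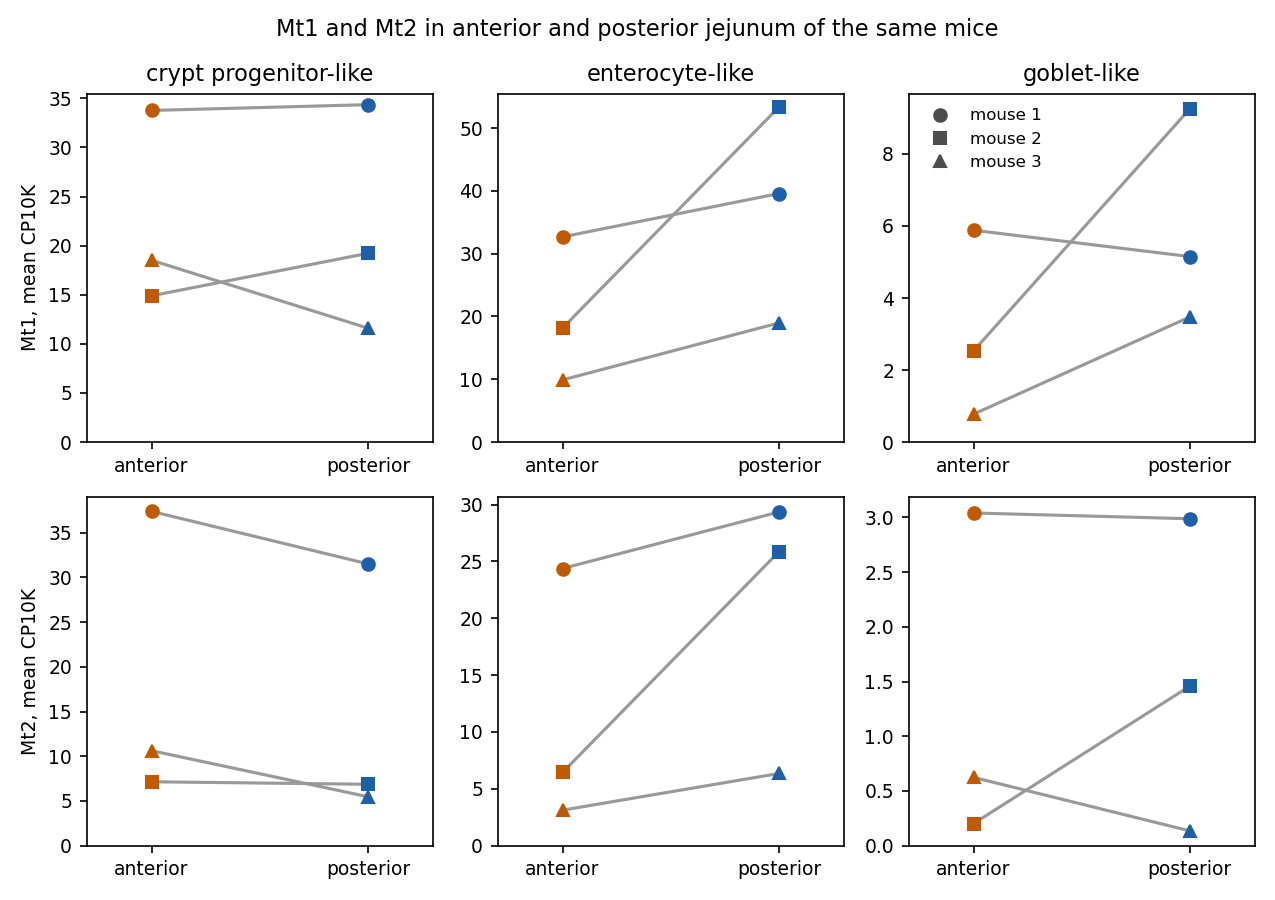
Level of Mt1 and Mt2 (UMIs per 10000 UMIs of a cell) in the anterior and posterior jejunum of each mouse, by cell class, with a line joining the samples of one mouse. In enterocyte-like cells each of the 3 lines is lower at the anterior end for both genes, and in crypt progenitor-like cells the lines run in both directions for Mt1.

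Goblet-like cells had lower anterior Mt1 values in mice 2 and 3 and a nearly level value in mouse 1. Mt1 averaged 3.06 ± 2.59 CP10K in anterior goblet-like cells and 5.96 ± 2.97 CP10K in posterior ones (SD, n = 3 each), a log2 difference of -1.17 (SE 0.60, limma adjusted p = 0.998). Per mouse the differences were 0.18, -1.79 and -1.92. Mt2 differed by -0.24 (limma adjusted p = 0.998), with 0.02, -2.05 and 1.30 in mice 1, 2 and 3, and its sign turned on leaving out anterior mouse 2 (0.43) or posterior mouse 1 (0.46). Of 4263 genes tested, 1 was called (0.0235%), the lectin-like gene Reg1, singled out after its value was seen, and without anterior mouse 2 none was, with 115 genes at an unadjusted p under 0.05. With mouse as a block and without mouse 1, 7 genes were called (0.184%).

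In crypt progenitor-like cells Mt1 averaged 22.4 ± 10.02 CP10K in anterior samples, against 21.7 ± 11.6 CP10K in posterior samples, a log2 difference of 0.09 (limma adjusted p = 0.998). Mt2 averaged 18.4 ± 16.5 CP10K in anterior samples, against 14.6 ± 14.6 CP10K in posterior samples (SD, n = 3 each), and its log2 difference of 0.41 was positive in 3 of 3 mice (limma adjusted p = 0.996, and 0.771 with mouse as a block). None of 4894 genes was called (0.0%), 234 had an unadjusted p under 0.05, and 12 were called with mouse as a block (0.245%) and 2 when mouse 1 was also left out (0.0422%). Only 12 and 11 cells stood behind posterior mice 2 and 3, and with at least 20 cells per sample, which leaves 1 posterior sample, the differences were -0.70 for Mt1 and -1.14 for Mt2. Leaving out one sample moved Mt1 between -0.29 and 0.49 and Mt2 between -0.28 and 1.19, with the sign of both turned without anterior mouse 1 or posterior mouse 3. Whether the region difference itself differed between the classes was not tested.

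Other genes of metal handling differed between the classes. Of 34 listed genes of zinc, copper and iron handling, 23 were in both tables, and none passed the region test in the 3 classes. The highest of them in enterocyte-like cells was Fth1, the iron-storing ferritin heavy chain, at 60.1 ± 20.3 CP10K in anterior samples, against 28.9 ± 3.49 CP10K in posterior samples (SD, n = 3 each; log2 difference 1.01, limma adjusted p = 0.658). In the blocked limma fit without mouse 1 the Fth1 difference was 1.26 (adjusted p = 0.00467), of opposite sign to those of Mt1 and Mt2 there. The zinc importer gene Slc39a14 had 1.25 ± 0.19 CP10K in anterior samples, against 0.53 ± 0.34 CP10K in posterior samples (log2 difference 1.09, limma adjusted p = 0.665).

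Between crypt progenitor-like and enterocyte-like cells, 13 of 22 tested metal genes passed, 1 higher and 12 lower in the progenitors, where 48.1% of all 5322 genes were called, 25.0% higher and 23.2% lower. The list's median log2 difference was -0.71, against -0.02 for all genes. On leaving out one sample 8 to 10 of the genes were called lower, and 6 when clusters were named against the mean of the other cells. The zinc exporter gene Slc30a2, known for loading Paneth cell granules, averaged 0.042 ± 0.040 CP10K in progenitors and 0.51 ± 0.11 CP10K in enterocytes (log2 difference -1.54, limma adjusted p = 4.47e-05, lower in 6 of 6 samples). The apical zinc importer gene Slc39a4 averaged 0.76 ± 0.33 CP10K in progenitors and 3.80 ± 2.36 CP10K in enterocytes (-1.84, limma adjusted p = 0.000725). The copper importer gene Slc31a1 was also lower in progenitors (-0.998), as was Mtf1, the gene of the metal-sensing factor (0.16 against 0.73 CP10K, log2 difference -1.39, limma adjusted p = 0.00244). Tfrc, the transferrin receptor that imports iron in dividing cells, was the member that was higher in progenitors (1.48 ± 0.45 against 0.50 ± 0.47 CP10K, log2 difference 1.42). Slc30a2 and the genes near 0.2 CP10K rest on few UMIs.

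Goblet-like cells were low for metal genes as they were for Mt1 and Mt2. Of 23 tested metal genes 12 passed, all lower in goblet-like cells, where 34.4% of 4932 genes were called, 6.35% higher and 28.1% lower. The median log2 difference was -1.18 over the list and -0.48 over all genes. Fth1 averaged 10.5 ± 4.33 CP10K in goblet-like and 44.5 ± 21.5 CP10K in enterocyte-like cells (-2.03, limma adjusted p = 1.48e-06), and the copper-zinc superoxide dismutase gene Sod1 averaged 5.26 ± 1.55 and 21.0 ± 3.11 CP10K in goblet-like and enterocyte-like cells (-1.99, limma adjusted p = 4.35e-06). Slc39a5, the gene most like Mt1 over classes, had 0.25 ± 0.27 CP10K in goblet-like and 2.88 ± 0.74 CP10K in enterocyte-like cells (-2.93, limma adjusted p = 2.9e-05), and the copper chaperone gene Atox1 was lower too (-1.69), a call lost when clusters were named against the mean of the other cells (limma adjusted p = 0.0703). Median-ratio scaling moved the median of all genes to -0.08 and the split of calls over 4804 genes to 524 higher and 626 lower (23.9% called), and it left 6 metal genes called lower.

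**Figure D5:**
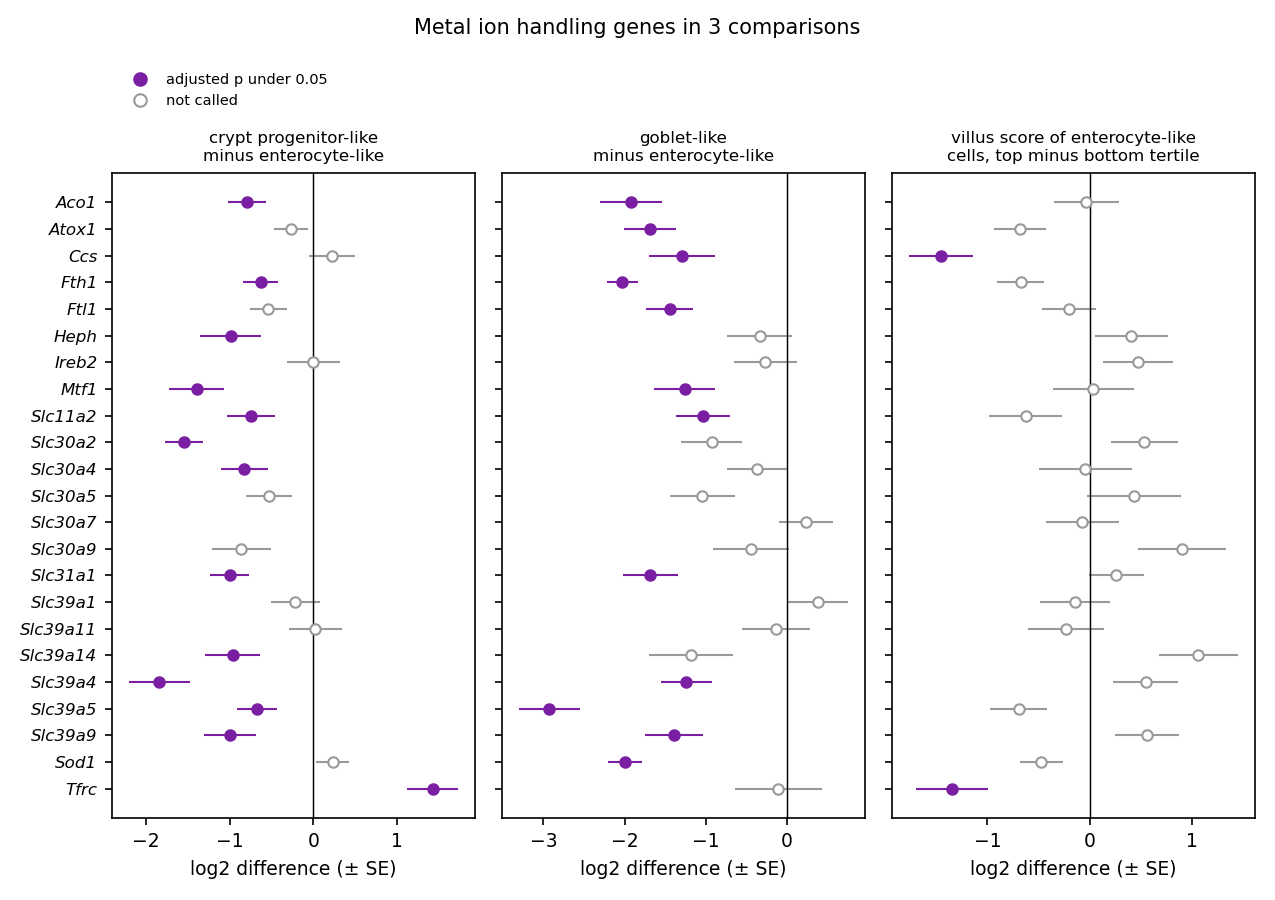
Log2 difference of each tested gene of the metal list between classes and between the top and bottom villus tertiles, with standard errors, with calls at an adjusted p under 0.05 marked. In crypt progenitor-like cells 12 of 22 genes were called lower and Tfrc was called higher.

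Along the villus few of the other metal genes passed. Of 23 tested, 2 did, both lower at the top, where 16.3% of all 4907 genes were called, 6.07% higher and 10.3% lower at the top. Ccs, which delivers copper to superoxide dismutase, averaged 0.57 ± 0.46 CP10K in the top and 1.95 ± 0.98 CP10K in the bottom tertile (-1.46, limma adjusted p = 0.0046, lower in 6 of 6 samples). The Ccs call was lost with Apoa4 alone as the score (limma adjusted p = 0.0692), with a score without Apoa4 and Apoa1 (adjusted p = 0.12) and without the block of sample (adjusted p = 0.0575). Tfrc averaged 0.27 ± 0.38 CP10K in the top and 0.93 ± 0.79 CP10K in the bottom tertile (-1.35, limma adjusted p = 0.0158), a call that was lost without anterior mouse 3 (adjusted p = 0.0532), posterior mouse 2 (adjusted p = 0.0535) or posterior mouse 3 (adjusted p = 0.0545). Fth1 did not pass (34.6 CP10K in the top and 53.4 CP10K in the bottom tertile, adjusted p = 0.0542), and neither did Sod1, Mtf1 or Slc39a5. The list's median was -0.04, and that of all genes -0.07.

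Glucocorticoid-responsive genes, which share that inducer with the metallothioneins, were few in the tables (6 of 13). Between crypt progenitor-like and enterocyte-like cells 2 of 6 passed, where 48.1% of all genes did, both lower in progenitors: the kinase gene Sgk1 (0.056 ± 0.037 against 0.55 ± 0.33 CP10K, log2 difference -1.46) and the cell cycle inhibitor gene Cdkn1a (0.77 ± 0.69 against 2.52 ± 0.87 CP10K, -1.64). Along the villus 3 of 6 passed, where 16.3% of all genes did, all higher at the top, opposite to Mt1 and Mt2: Cdkn1a (4.15 ± 2.41 in the top and 1.62 ± 0.45 CP10K in the bottom tertile, log2 difference 1.13), Sgk1 (0.80 ± 0.42 and 0.18 ± 0.13 CP10K in the top and bottom tertiles, 1.40) and Nfkbia (1.12). The Sgk1 call was lost without posterior mouse 3 (limma adjusted p = 0.063), and the Nfkbia call without posterior mouse 1, posterior mouse 3 or anterior mouse 3, and without cluster 4 (log2 difference 0.37). In goblet-like cells 1 of 6 was called higher than in enterocyte-like cells and 2 lower, where 6.35% of all genes were called higher and 28.1% lower. The phosphatase gene Dusp1 was higher (1.04 ± 0.83 against 0.26 ± 0.41 CP10K, 1.42) and the receptor gene Nr3c1 lower (-1.79). The other lower call, Tsc22d3 (-0.99), was lost without anterior mouse 1 or 2 or posterior mouse 2.

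Immediate early and heat shock genes, which respond to handling and stress, had 16 of 21 members in the tables. Progenitors had 7 called higher and 1 lower than enterocytes, a share close to the 48.1% of all genes called in this comparison. The higher ones included the mitochondrial chaperone genes Hspe1 (13.9 ± 1.58 against 2.40 ± 1.68 CP10K, log2 difference 2.69) and Hspd1 (1.85), the cytosolic chaperone gene Hsp90ab1 (1.90) and the immediate early gene Ier2 (1.12). The single lower call, Fos (-1.10), was lost without any of anterior mice 2 and 3 and posterior mice 2 and 3. Along the villus 3 of 16 were called lower at the top and 2 higher, where 10.3% of all genes were called lower and 6.07% higher. Hspe1 (-1.59), Hspd1 (-1.44) and Hsp90ab1 (-1.20) fell towards the top, while Fos (1.36) and Jun (1.76) were higher there. Jun stood at 4.57 ± 2.47 in the top and 1.61 ± 1.82 CP10K in the bottom tertile, and its log2 difference was 0.45 without cluster 4. The Hsp90ab1 call was lost without anterior mouse 2, posterior mouse 1 or posterior mouse 3. In goblet-like cells, where 6.35% of all genes were called higher and 28.1% lower, 5 of 16 were called higher than in enterocyte-like cells, Fosb (2.22), Egr1 (1.58), Ier2 (1.55), Junb (1.33) and Fos (0.74), and 2 lower, the chaperone genes Hspa8 (-1.50) and Hspe1 (-0.98). Fos, Junb and the lower Hspe1 were named after their values were seen.

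Most glutathione and antioxidant genes were lower in goblet-like cells, as Mt1 and Mt2 were. In goblet-like cells 15 of 17 tested were called lower than in enterocyte-like cells, where 28.1% of all genes were, with a list median of -1.39 against -0.48 for all genes, and 8 were under median-ratio scaling. The peroxiredoxin gene Prdx1 averaged 2.94 ± 1.27 CP10K in goblet-like and 14.4 ± 4.52 CP10K in enterocyte-like cells (log2 difference -2.25), and Gpx2, the gastrointestinal glutathione peroxidase, 1.79 ± 1.37 and 6.96 ± 5.36 CP10K in goblet-like and enterocyte-like cells (-1.82). Along the villus 7 of 19 were called lower at the top and 2 higher, where 10.3% of all genes were called lower and 6.07% higher. The lower count was 3 to 6 on leaving out one sample. Gpx1 had the largest of these differences, with 3.92 ± 2.48 CP10K in the top and 19.8 ± 4.67 CP10K in the bottom tertile (-2.50, limma adjusted p = 4.74e-05, lower in 6 of 6 samples), and the others were Prdx3 (-1.21), Prdx4 (-1.18), Gpx2 (-1.15), Prdx1 (-1.04), Prdx6 (-0.92) and Txn1 (-0.67). The Prdx4 call was lost without posterior mouse 3. The higher ones were Gpx4 (0.95) and Prdx5 (0.78), and these, Prdx3, Prdx6 and Txn1 were named after their values were seen. Between progenitors and enterocytes 10 of 19 were called, a share close to the 48.1% of all genes. The 5 called higher were Prdx4 of the endoplasmic reticulum (1.82 ± 0.48 against 0.18 ± 0.12 CP10K, 2.45) and Prdx3, Gpx1, Prdx2 and Gpx2 (0.69 to 1.09 on the log2 scale). The 5 called lower were Prdx5 (-1.87), the catalase gene Cat (-1.50), Srxn1 (-1.50), Gclm (-1.50) and Gpx4 (-1.13).

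Wells carried a label of pos or neg whose meaning the sources do not give. Mt1 averaged 17.8 ± 9.45 CP10K in pos and 18.0 ± 10.3 CP10K in neg wells, and Mt2 8.75 ± 5.17 CP10K in pos and 8.73 ± 5.08 CP10K in neg wells (SD, n = 6 samples each). The 2 comparisons gave an exact two-sided sign-flip permutation p of 0.969 each (adjusted 0.969), where the smallest possible is 0.03125. The mean log2 difference was 0.016 for Mt1 (SD 0.29) and 0.006 for Mt2 (SD 0.31).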

How the data were processed

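MARS-Seq libraries of 6 samples were analysed: 3 mice, each with anterior and posterior jejunum. Per the submitters' processing notes the tools were STAR 2.6.1b, UMI-tools 1.0.0, R 3.5.1, cutadapt and bcl2fastq, with GRCm38 (mm10). The deposited tables, 1 per region, hold log2 values made by the authors from size-factor-scaled UMIs with 1 added and a linear correction. From the values, the correction is linear per gene in pool and 2 covariates of the cells, so it could be removed, and whole UMIs were recovered (100.0% of values within 0.01 of a whole number; the step was tested on simulated data). CP10K was then computed over the 5674 genes in both tables, which hold 98.0% of UMIs. The deposited values were used as an alternative.

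Cells were clustered with leidenalg 0.10.2 (1500 variable genes, 25 components, 15 neighbours, resolution 1.0), with Mt1, Mt2 and 4 gene lists left out. A cluster was named for its best class when at least 3 markers exceeded the 25th-percentile cluster by 1.0 on the log2 scale. It stayed unnamed when at least 2 other classes had over 50% of their markers raised. It also stayed unnamed when at least 3 of its 10 leading genes led a cluster of another class and none was a marker of its own class. The planned median cluster left the enterocytes of mouse 1 unnamed, and the percentile was chosen after the clusters were seen. Classes were rebuilt here from the same cells. No doublet caller was run, as cells were sorted singly into wells. Of 3348 wells with 1 cell, 2043 were in the tables; 72 empty wells and 36 wells with 10 cells were not used. No 2 cells shared all counts (0 cells).

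Class means per sample (at least 10 cells, genes of at least 0.2 CP10K) were tested as log2(mean CP10K + 0.2) with limma 3.58.1 in R 4.3.3 and Benjamini-Hochberg adjustment over all genes, anterior minus posterior, or between classes or tertiles with sample as a block. Adding 0.2 understates changes of low genes. Count models were not used because the deposited unit is log2. The fit was tested on simulated data. Same-numbered samples come from the same mouse by the labels: deviations from the region mean correlated at 0.58, 0.23 and 0.29 for mice 1, 2 and 3 in enterocyte-like cells, 0.28, 0.05 and 0.06 in goblet-like cells and 0.30, 0.04 and 0.07 in crypt progenitor-like cells. Plate label p06 was taken as 2 plates, since posterior mice 1 and 2 each fill all of its well positions.

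The genes, lists and tests were chosen with earlier results of these data known. Named genes are Mt1 and Mt2, up to 4 called genes of smallest adjusted p per list and comparison (with none called, 2 by smallest p, of which those of the metal list in enterocytes are printed; other genes behind counts of 5 or fewer were added after their values were seen), and the 5 genes most like each metallothionein (1 is not reported here); Mtf1, Fth1, Sod1 and Slc39a5 along the villus and Mtf1 in the class comparison were added by role. Intervals and limits cover counting error only.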

Additional observations from a re-analysis of the deposited data

How the results depend on the processing

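No value or count changed sign among the results with a test that passed its threshold. In enterocyte-like cells the count of genes that differed between regions was 20 with the replicate block of mouse, 90 with that block and without mouse 1, 5 without both samples of mouse 1 and 4 with clusters named against the mean of the other cells, against 0 in the main analysis; the blocked fit without mouse 1 also carried Mt1 (-1.23) and Mt2 (-1.47) past the threshold, and the cause was not tested. Leaving out one sample gave Mt1 between -1.34 and -0.49 and Mt2 between -1.87 and -0.42, none called. In goblet-like cells the count was 7 with the block and without mouse 1 and between 0 and 1 on leaving out one sample. In crypt progenitor-like cells it was 12 with the block, 2 with the block and without mouse 1, 1 with clusters named against the median cluster and between 0 and 1 on leaving out one sample (1 without anterior mouse 3). There the region difference turned to -0.70 for Mt1 and -1.14 for Mt2 with at least 20 cells per sample, which leaves 1 posterior sample.

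Goblet-like minus enterocyte-like Mt1 was -3.63 from summed UMIs, -2.13 under median-ratio scaling, -2.33 with clusters named against the mean of the other cells and -1.64 on the deposited log2 values, where Mt2 was -1.33. That comparison had 37 list genes called, 24 under median-ratio scaling and 28 to 37 on leaving out one sample. The villus comparison had 19 list genes called, 12 without anterior mouse 3, 9 without posterior mouse 3 (9 to 17 on leaving out one sample), 11 without mouse 1, 8 without the replicate block of sample, 9 with Apoa4 alone as the score, 6 without Apoa4 and Apoa1, and 8 with 2 equal parts in place of tertiles. The setting without cluster 4 and naming against the median cluster were chosen after seeing the data. Shallow cells limit the values of goblet-like, tuft-like and cluster 7 cells, where Mt2 rests on few UMIs. The blocked fit changed no other call of Mt1 or Mt2.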

Other observations

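The first 150 bases of the annotated transcripts, which lie downstream of the windows printed above, also hold matches to TGCACNC or TGCGCNC on either strand: 4 in Mt1-201 and 3 in Mt2-201. Of 58695 annotated coding transcripts, 15.2% have a match in that stretch, 0.0545% have at least 4 and 0.388% at least 3. No binding was measured.

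The cell pools A and B of each plate were compared as a description of the spread within a plate. Over 9 plates the median absolute log2 difference between pools was 0.23 for Mt1 and 0.36 for Mt2 over all cells, and the largest was 0.96 for Mt1 and 1.14 for Mt2. Over enterocyte-like cells on 8 plates the medians were 0.48 and 0.50. Pools hold different cells, so this includes the spread between cells.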
